A study of Caenorhabditis elegans with 30 samples.

Results

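The F-box B and F-box C genes of *C. elegans* were followed through 30 RNA-sequencing libraries of whole L4 larvae. The members are all genes whose WormBase name is *fbxb-* or *fbxc-* with a number, which gave 152 genes of 19988, namely 104 *fbxb* and 48 *fbxc* genes. Some neighbouring *fbxc* genes carry one name and were summed, which left 146 names, 104 *fbxb* and 42 *fbxc*, of 19880 names in all. The study asked how worms recognise oomycetes, fungus-like eukaryotic pathogens, through the receptor tyrosine kinase OLD-1 and its relative FLOR-1, which is probably a pseudokinase. In the extract experiment, *old-1(ok1273)* deletion mutants, *flor-1(icb93)* mutants and N2, the laboratory wild type, were each sequenced with and without an extract of the oomycete *Myzocytiopsis humicola* (6 groups, 18 libraries). In the *old-1p::old-1* experiment (6 libraries), animals with the array icbEx308, which carries *old-1p::OLD-1::GFP* and *bus-1p::GFP*, and icbIs4 were set against non-transgenic animals taken from the same strain, labelled N2(icbIs5). In the *dpy-7p::old-1* experiment (6 libraries), animals with icbEX359, which drives *old-1* from the epidermal *dpy-7* promoter beside a hygromycin resistance gene, were set against N2 with icbEx360, which carries the resistance gene alone. All animals were grown from bleached embryos on *E. coli* OP50, and each of the 10 groups had 3 libraries.

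Several features limit these groups as models. The mutant groups rest on 1 allele each, the arrays are extrachromosomal, and the strain list of the study gives *flor-1(icb93)* only together with the reporter icbIs5, which the labels of those libraries do not mention. The labels name icbIs4 for the *old-1p::old-1* animals and icbIs5 for their controls, and in 1 experiment of the study the array icbEx308 was carried by *old-1(ok1273)* animals, a background that the labels of these libraries do not give. The study states that the animals were collected in triplicate. Nothing states that libraries of a group came from separate cultures, so each p-value measures only the spread between these libraries, which may be technical. RNA was taken from whole animals, where fewer cells of a type and less RNA per cell cannot be told apart.

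F-box proteins are the interchangeable substrate adaptors of SCF ubiquitin ligases. The F-box motif binds an SKP1-type adaptor (SKR in *C. elegans*), which joins it to a cullin scaffold, and the rest of the protein holds the substrate to be ubiquitinated and sent to the proteasome. *Caenorhabditis* genomes hold very large F-box families, among them FBXA, FBXB and FBXC, whose members carry a nematode F-box-associated domain after the F-box and many of which lie in tandem clusters on chromosome arms. The substrates of most single members are not known.

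The members were concentrated on chromosome II, with 58 *fbxb* and 35 *fbxc* genes there. Chromosome IV held 9 *fbxb* and 13 *fbxc* genes, and the other *fbxb* genes lay on chromosomes I, III, V and X (10, 8, 16 and 3 genes). Joining members less than 100000 bases apart (WBcel235 coordinates), the largest cluster was II:1536231-1863782 with 29 *fbxb* and 4 *fbxc* genes. A second one, II:868814-1049949, held 19 *fbxc* and 6 *fbxb* genes. On chromosome V, V:19233769-19330757, held 12 *fbxb* genes, and IV:891239-911196 held 10 *fbxc* genes within 20.0 kb.

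The chromosome IV cluster is a regular tandem array, all on the plus strand. It repeats 5 times a gene named *fbxc-4* or *fbxc-5*, with a transcript of 1128 bases, followed by a gene named *fbxc-8* or *fbxc-12*, with a transcript of 1413 bases. In chromosome order the genes were *fbxc-5*, *fbxc-8*, *fbxc-4*, *fbxc-8*, *fbxc-4*, *fbxc-8*, *fbxc-5*, *fbxc-12*, *fbxc-4* and *fbxc-8*. The distance from one repeat to the next was 4152 or 4153 bases. Copies that share a name had identical estimated counts, and the summed counts of *fbxc-4* and *fbxc-5* were whole (within 0.01) in 30 of 30 libraries, as were those of *fbxc-8* and *fbxc-12*. So the reads of each pair had been divided between its names by the pseudoaligner, and the 2 names of a pair were not measured separately. Values of *fbxc-4* and *fbxc-5* are therefore also given as a sum, an alternative chosen after seeing the data. Elsewhere division was rare: of 92 *fbxb* genes with 1 transcript and counts in at least 5 libraries, 96.7% had whole values in 90% or more of those libraries, against 88.3% of 9133 such genes in the genome. The exception that matters most is *fbxb-53* (II:1756882-1759452), with 5 of 28 values whole, so that its reads were partly shared with another transcript.

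Most members were at low levels. On the TPM scale (transcript abundance scaled to transcript length and to the library), the median of the mean level over the 30 libraries was 0.0632 for *fbxb* names and 0.334 for *fbxc* names. Only 3 *fbxb* and 17 *fbxc* names averaged 1 TPM or more. Within *fbxc*, *fbxc-4* had the highest mean level at 20.1 TPM (12.3 to 27 over the libraries), followed by *fbxc-44* (II:4236504-4237751) at 15.8 TPM (7.39 to 48.9), *fbxc-5* at 13.5 TPM, *fbxc-45* (IV:2919827-2922243) at 10.4 TPM and *fbxc-50* (II:3246316-3248123) at 8.57 TPM (1.48 to 34.0). These ranges overlap, so the order among them is that of the means only. The level of *fbxc-4* is a sum over 3 gene copies and that of *fbxc-5* over 2, so their ranks are not those of single genes. Per copy, the counts of *fbxc-4* over those of *fbxc-5* gave a ratio of 0.743 to 1.35 over the libraries. Within *fbxb*, *fbxb-7* (V:17377406-17379233) had the highest mean level at 1.88 TPM and the widest range, 0.0492 to 11.5 TPM. It was followed by *fbxb-14* at 1.79 TPM, *fbxb-38* at 1.03 TPM, *fbxb-67* at 0.701 TPM and *fbxb-101* at 0.532 TPM.

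**Figure D1:**
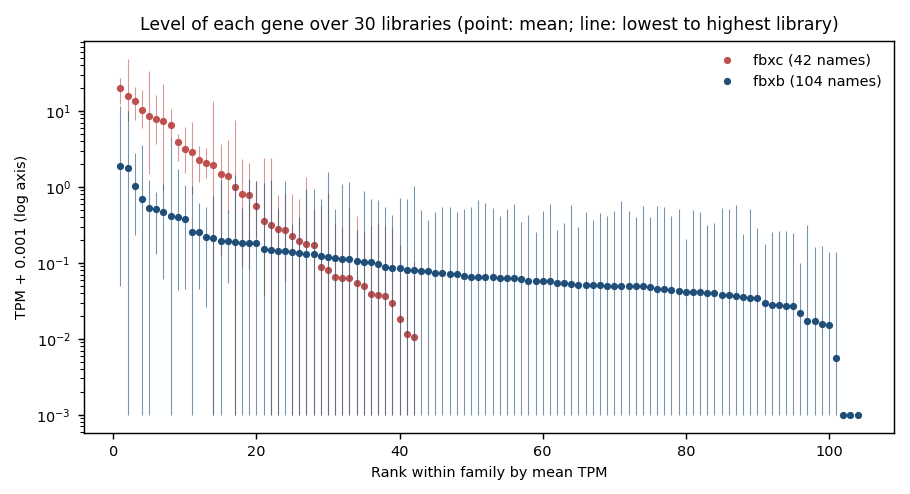
Mean level of every member name over the 30 libraries (TPM + 0.001, log axis), ranked within the *fbxb* and *fbxc* families, with a line from the lowest to the highest library. The *fbxc* names reach 20.1 TPM (*fbxc-4*, a sum over 3 gene copies), whereas only 3 *fbxb* names average 1 TPM or more.

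Detection depended strongly on the experiment. A count was present in every library for 9 *fbxb* and 20 *fbxc* names, and 3 *fbxb* names had none anywhere. In all 18 libraries of the extract experiment, 29 *fbxb* and 5 *fbxc* names were at 0 counts. Of these, 22 *fbxb* and 5 *fbxc* names reached 10 counts over the 6 libraries of the *old-1p::old-1* experiment, and 8 *fbxb* and 2 *fbxc* names did so over the 6 libraries of the *dpy-7p::old-1* experiment. The pattern also ran the other way. *fbxb-14* had 2.22 to 5.39 CPM (counts scaled to the library total) in *old-1p::old-1* libraries and 0.411 to 2.20 CPM in their controls, but at most 0.132 CPM in *dpy-7p::old-1* libraries and 0.0778 CPM in theirs. Nothing states that the experiments were grown side by side, and levels are compared below only within an experiment.

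Library totals ran between 19214839 and 38956390 counts. *old-1* itself had 0.548 to 1.22 CPM in *old-1(ok1273)* libraries and 1.55 to 3.44 CPM in N2 libraries, and was at 42.4 to 60.4 CPM in *old-1p::old-1* and 48.8 to 80.1 CPM in *dpy-7p::old-1* libraries, against at most 1.44 CPM in their controls. *flor-1* had 16.2 to 21.4 CPM in *flor-1(icb93)* and 26.2 to 54.4 CPM in N2 libraries. Libraries of single groups differed in 15 genes of oocytes and yolk, given as the mean of log2(CPM + 0.5). This level was 1.80 to 1.85 in extract-treated N2 but 1.91, 5.70 and 6.28 in untreated N2 libraries A, B and C. It was 1.49 to 1.99 in *old-1(ok1273)* and 7.04 to 7.33 in *flor-1(icb93)* libraries. It was 7.79, 10.6 and 10.9 in *old-1p::old-1* libraries, against 9.25, 9.11 and 5.63 in their controls, and 10.1 to 10.6 in *dpy-7p::old-1* libraries, against 9.31 to 9.71 in theirs. The effective transcript lengths in the *flor-1(icb93)* files point to shorter fragments (a length reduction of 154.6 to 165.4 bases, against 239.8 to 273.4 bases in all other libraries).

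The summed *fbxb* level showed where the genes were high. It was 20.1, 59.4 and 61.5 CPM in *old-1p::old-1* libraries A, B and C, against 28.1, 24.7 and 6.74 CPM in the controls. It was 19.4, 33.7 and 19.3 CPM in *dpy-7p::old-1* libraries, against 11.8, 6.31 and 11.5 CPM in the controls. Groups overlapped in the *old-1p::old-1* experiment and did not in the *dpy-7p::old-1* experiment. The sum was 3.90 to 12.1 CPM in the extract experiment. The number of *fbxb* names with a count moved likewise: 74, 98 and 97 in *old-1p::old-1* libraries against 85, 92 and 37 in the controls, 77, 94 and 74 in *dpy-7p::old-1* libraries against 43, 45 and 49 in the controls, and 25 to 45 in the extract experiment. Transgenic library A and control library C of the *old-1p::old-1* experiment had the lowest *fbxb* sum and the lowest oocyte and yolk level of their groups, and the part of that level in the sums was not tested.

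**Figure D2:**
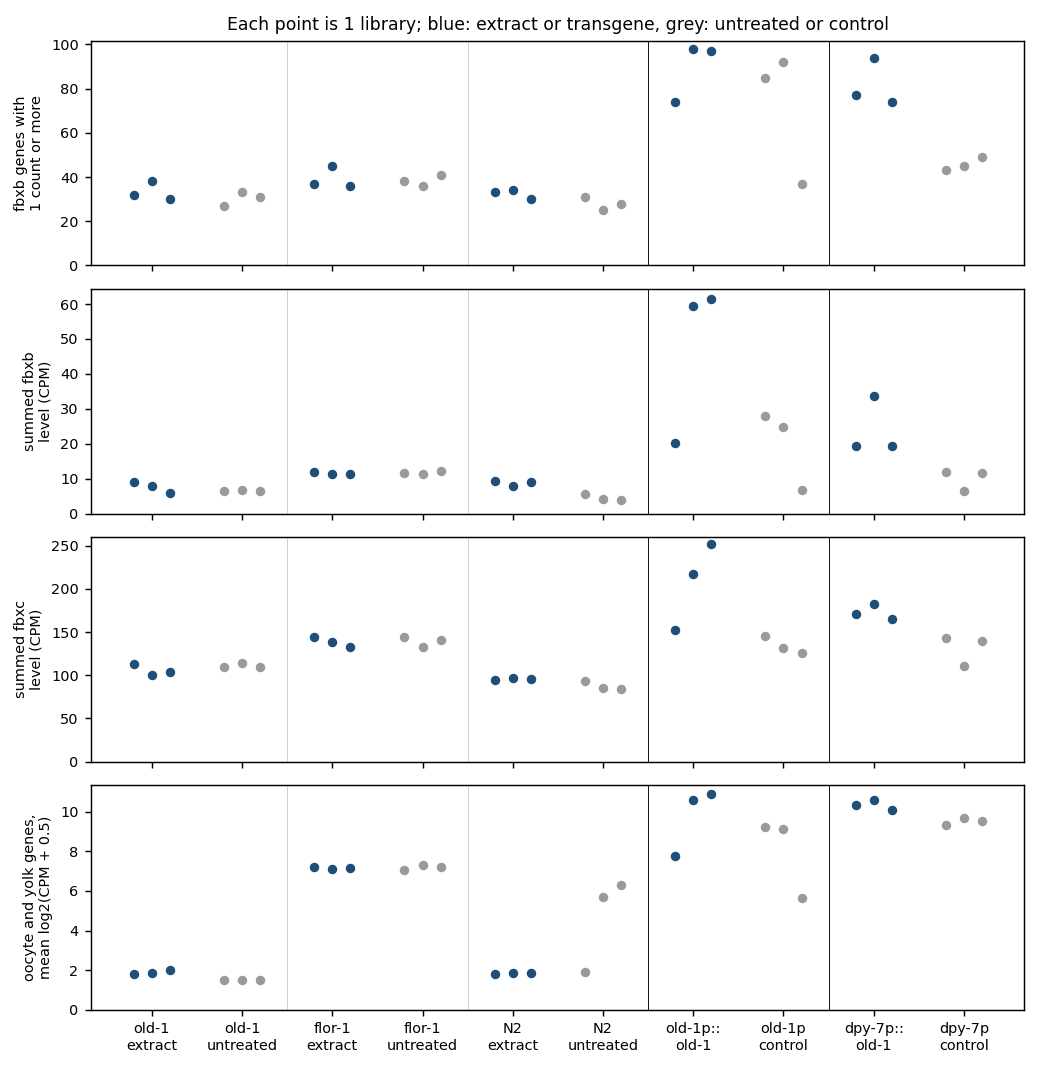
Each point is 1 of the 30 libraries, in 10 groups: number of *fbxb* names with at least 1 count, summed *fbxb* level (CPM), summed *fbxc* level (CPM), and the mean log2(CPM + 0.5) of 15 oocyte and yolk genes. The *fbxb* sum lies between 3.90 and 12.1 CPM in the extract experiment and reaches 61.5 CPM in *old-1p::old-1* animals.

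Differences were tested with edgeR's quasi-likelihood test, with p-values adjusted over all genes of each fit (Benjamini-Hochberg), and a gene was called at p under 0.01 and adjusted p under 0.1. After a filter on low counts, 46 names were tested in the extract experiment, 78 in the *old-1p::old-1* experiment and 42 in the *dpy-7p::old-1* experiment. A name can pass this filter through the group where it is high. Over all fits 82 names (49 *fbxb*, 33 *fbxc*) were tested at least once and 64 never, and 31 (15 *fbxb*, 16 *fbxc*) were called in at least 1 comparison.

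In N2 animals, the summed *fbxb* level of every extract-treated library lay above that of every untreated one: 9.32, 8.0 and 8.89 CPM with extract, against 5.58, 4.23 and 3.90 CPM without. Of 46 members tested, 4 rose (*fbxb-7*, *fbxb-53*, *fbxc-40* and *fbxb-69*) and 2 fell (*fbxc-48* and *fbxc-32*). Of all 16793 genes, 34.9% passed, 14.6% upward and 20.3% downward, and 6 of 46 members is a smaller share than this background. The 2 shares are not matched for level, and few counts make a call less likely. The median log2 fold change of the 46 members was 0.50, against -0.01 over all genes, and 34 of 46 were positive, against 8173 of 16793. These 46 had passed the count filter, which a name can pass through the group where it is high. The groups did not overlap for 11 of 46 members, 5 of them called, and for 33.1% of all genes.

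*fbxb-7* had 2.76, 1.14 and 1.73 CPM in extract-treated N2 libraries, against 0.151, 0.310 and 0.0722 CPM in untreated ones. Its lowest treated library lay above its highest untreated library, with a log2 fold change of 3.41 (SE 0.47, edgeR adjusted p = 6.35e-05). *fbxb-53* had 0.677, 0.361 and 0.751 CPM with extract, against 0, 0 and 0.0722 CPM without. That is 43 against 2 counts over 3 libraries each, a 21.9-fold ratio with a 95% counting interval of 5.70 to 186 (log2 fold change 4.22, SE 0.68, edgeR adjusted p = 0.000281). *fbxb-7* and *fbxb-53* lie on different chromosomes, and *fbxb-53* is inside the largest cluster of chromosome II.

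*fbxc-40* (II:986003-988670) had 1.64, 1.32 and 2.50 CPM in extract-treated and 0.870, 0.356 and 0.144 CPM in untreated N2 libraries (log2 fold change 1.96, SE 0.48, edgeR adjusted p = 0.0045). *fbxb-69* had 0.416, 0.443 and 0.307 CPM with extract, against 0.151, 0.103 and 0.0722 CPM without (1.76 on the log2 scale, SE 0.47, edgeR adjusted p = 0.0079). Both sets of groups were separate. *fbxc-48* (II:739553-740908) had 1.15, 0.960 and 1.04 CPM with extract, against 0.867, 4.44 and 4.15 CPM without, and its groups overlapped through untreated library A (log2 fold change -1.64, SE 0.43, edgeR adjusted p = 0.00696). *fbxc-32* (II:946485-948191) was near the limit of detection, with 1 count over the extract-treated and 9 over the untreated libraries, an 8.85-fold lower level with a 95% counting interval of 1.23 to 388 (edgeR adjusted p = 0.0199).

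All 15 oocyte and yolk genes and all 9 sperm genes of a fixed list were lower with extract in this comparison, by a median of -2.60 and -2.93 on the log2 scale. Their summed level was 90 to 95.6 CPM with extract and 103 to 2606 CPM without for oocyte and yolk genes, of which *vit-5* was at 0 counts in the treated group. Untreated libraries B and C carried this difference. *fbxc-48* moved with it: it was at 4.44 and 4.15 CPM in B and C only, and without those 2 libraries its log2 fold change was 0.27. In that fit untreated N2 is library A alone, which is assumed to vary like the other groups. *fbxb-7* was then still called, at 3.57 on the log2 scale (edgeR adjusted p = 0.00112). *fbxb-53* was too (edgeR adjusted p = 0.00234), with 43 counts over the treated libraries and none in library A, at least 5.25-fold higher when 3 counts in that library are taken as the floor. No other member was called.

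**Figure D3:**
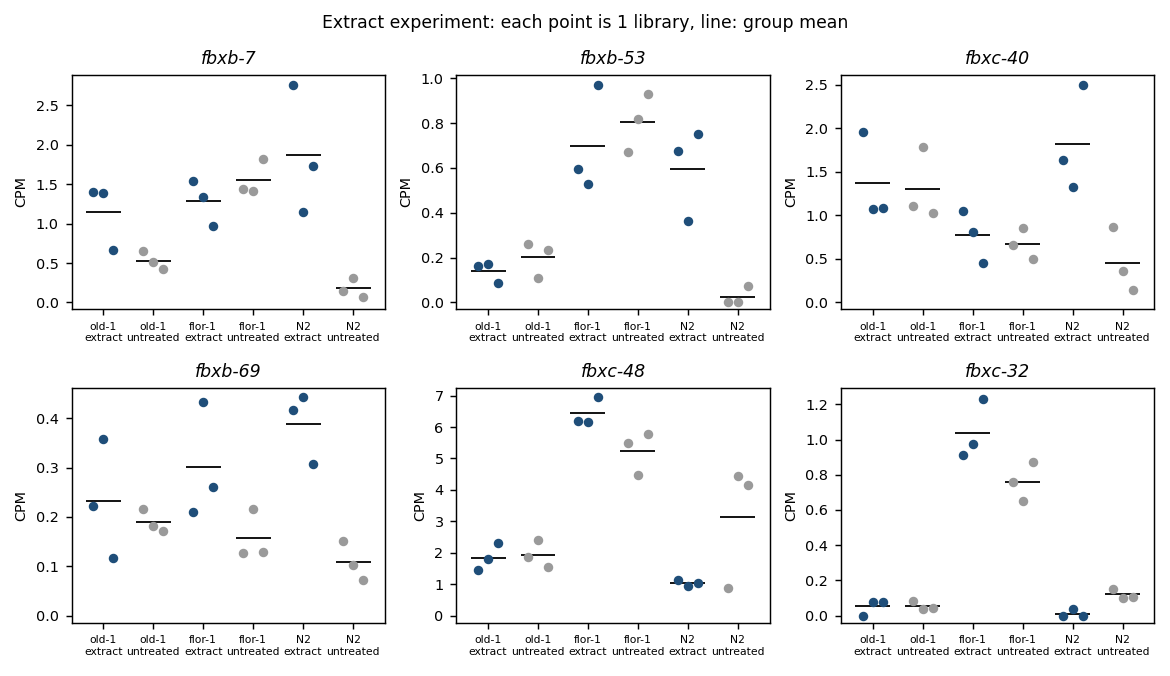
Levels (CPM) in each library of the extract experiment for the members called in the extract response of N2. These are *fbxb-7*, *fbxb-53*, *fbxc-40*, *fbxb-69*, *fbxc-48* and *fbxc-32*, with the extract-treated group left of the untreated group in each genotype. *fbxb-7* and *fbxb-53* separate by treatment in N2 and overlap between treatments in *flor-1(icb93)* animals.

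In *old-1(ok1273)* animals, extract changed 3 members: *fbxb-66* rose, and *fbxc-58* and *fbxb-88* fell. The genome-wide share called was 24.1%, with 12.7% higher and 11.4% lower, and the members' median log2 fold change was -0.02 (all genes -0.01). *fbxc-58* (IV:9371508-9373206) had 1.84, 1.91 and 1.84 CPM with extract, against 3.92, 5.22 and 5.42 CPM without, with a log2 fold change of -1.42 (SE 0.25, edgeR adjusted p = 0.000556). *fbxb-66* had 15 counts over the treated and none over the untreated libraries, at least 4.76-fold higher when 3 counts over the untreated group are taken as the floor (edgeR adjusted p = 0.0334). *fbxb-88* fell to 0.406, 0.199 and 0.235 CPM, against 0.820, 0.435 and 0.688 CPM in untreated libraries, with a log2 fold change of -1.22 (SE 0.41, edgeR adjusted p = 0.0394), and its groups were separated by a narrow gap. The calls of *fbxb-66* and *fbxb-88* were lost on leaving out single libraries, 5 different ones for *fbxb-66* and 4 for *fbxb-88*, and that of *fbxc-58* was not.

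The leading members of the N2 response were not called in these mutants. *fbxb-7* had 1.40, 1.39 and 0.666 CPM in extract-treated *old-1(ok1273)* libraries, against 0.647, 0.508 and 0.430 CPM in untreated ones (log2 fold change 1.08, SE 0.40, edgeR adjusted p = 0.059). *fbxb-53* had 0.160, 0.173 and 0.0852 CPM with extract, against 0.259, 0.109 and 0.234 CPM without. For *fbxb-7* the groups did not overlap, and for *fbxb-53* they did.

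In *flor-1(icb93)* animals, edgeR called no member and no gene at all (0%) after extract. At an unadjusted p under 0.05 it found 0 of 46 members and 644 of 16793 genes, and DESeq2 called 0 members and 34 genes. *fbxb-7* had 1.54, 1.34 and 0.971 CPM with extract, against 1.44, 1.41 and 1.82 CPM without. *fbxb-53* had 0.594, 0.530 and 0.968 CPM with extract, against 0.670, 0.816 and 0.930 CPM without. In these mutants both genes stood, with or without extract, at levels whose range overlapped that of treated N2.

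The difference of response was tested as an interaction, which shares the 6 N2 libraries between both mutants. For *old-1(ok1273)* minus N2, 6 members had a lower response and none a higher one, with 31% of all genes called (18% higher, 13% lower). The median difference of all 46 members tested was -0.40, against 0.00 over all genes. The 6 members called were *fbxb-53* (-4.82 on the log2 scale, SE 0.95, edgeR adjusted p = 0.00172), *fbxb-7* (-2.33, SE 0.63, edgeR adjusted p = 0.011), *fbxb-79*, *fbxc-7*, *fbxc-54* and *fbxc-40*. The call of *fbxb-7* was lost without untreated N2 library C, and *fbxc-7* lost its call without 5 libraries in turn and *fbxc-54* and *fbxc-40* without 8 each. In this contrast 9 of 15 oocyte and yolk genes and 8 of 9 sperm genes were higher, by list medians of 3.70 and 3.04. With the oocyte and yolk level as a covariate *fbxb-53* alone was called, and without untreated N2 B and C *fbxb-53*, *fbxb-7* and *fbxc-54* were. DESeq2 did not call *fbxb-79* and *fbxc-54*.

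For *flor-1(icb93)* minus N2, 2 members had a lower response, *fbxb-7* (-3.70, SE 0.59, edgeR adjusted p = 0.00058) and *fbxb-53* (-4.45, SE 0.80, edgeR adjusted p = 0.00159). A higher response was found for *fbxc-32* (3.25) and *fbxc-48* (1.92), the members that were lower with extract in N2. The genome-wide share was 23.8%, with 14.4% higher and 9.43% lower. The calls of *fbxc-32* and *fbxc-48* were lost on leaving out single untreated N2 libraries. In this contrast the 15 oocyte and yolk genes were also all called higher, by a median of 2.41. *fbxc-32* and *fbxc-48* were not called with the oocyte and yolk level as a covariate or without untreated N2 B and C, while *fbxb-7* and *fbxb-53* were in both settings.

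Without extract, *old-1(ok1273)* animals differed from N2 in 10 members, 9 higher and 1 lower, where 39.1% of all genes were called (15.7% higher, 23.4% lower). The members' median log2 fold change was 0.38, against -0.03 over all genes, and 31 of 46 were positive. The count filter, which a name can pass through the group where it is high, shaped this set. The members called were *fbxc-4*, *fbxc-5*, *fbxc-47*, *fbxc-58*, *fbxc-40*, *fbxb-75*, *fbxb-53*, *fbxb-7* and *fbxb-79*, all higher, and *fbxc-45*, lower. The sum of *fbxc-4* and *fbxc-5* was 40.4, 44.1 and 42.9 CPM in *old-1(ok1273)* libraries, against 33.3, 26.7 and 25.1 CPM in N2 libraries, a log2 fold change of 0.57 (edgeR adjusted p = 0.000162). The groups did not overlap. *fbxc-47* (IV:3805519-3806712) had 8.19, 7.32 and 7.91 CPM in the mutant and 5.92, 6.09 and 4.73 CPM in N2 (0.47 on the log2 scale, SE 0.11, edgeR adjusted p = 0.0038).

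*fbxb-53* and *fbxb-7* were higher in untreated *old-1(ok1273)* than in untreated N2 animals. *fbxb-53* had 14 against 2 counts, a 6.96-fold ratio with a 95% counting interval of 1.60 to 63.1, and *fbxb-7* had a log2 fold change of 1.63 (SE 0.53, edgeR adjusted p = 0.0201). *fbxb-75* had 21 against 4 counts, a 5.22-fold ratio (1.76 to 20.9). *fbxc-45* was at 7.98, 7.87 and 7.48 CPM in the mutant and 8.37, 9.60 and 9.97 CPM in N2 libraries, a log2 difference of -0.28. Calls of *fbxc-4*, *fbxc-5* and *fbxc-47* held on leaving out each library in turn and each of the others was lost at least once, with 5 members called without N2 library B or without any 1 of the mutant libraries. DESeq2 did not call *fbxb-53*, *fbxb-75*, *fbxb-79* and *fbxc-45* in this comparison. All 15 oocyte and yolk genes were lower in the mutant (summed level 77.5 to 83.2 CPM, against 103 to 2606 CPM in N2). With the oocyte and yolk level as a covariate, *fbxc-4* and *fbxb-53* were the 2 of these 10 members still called. *fbxc-5* and *fbxc-47* lost their calls there, and also without N2 libraries B and C. As the reads of *fbxc-4* and *fbxc-5* were divided, their different outcomes are not 2 results. The oocyte and yolk level was 1.49 to 1.52 in the mutant and 1.91 to 6.28 in N2. The groups did not overlap in it, so the covariate cannot separate it from the genotype, and a kept or lost call decides nothing.

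Untreated *flor-1(icb93)* animals differed from the same N2 libraries in 15 members, 14 higher and 1 lower, where 40.7% of all genes were called (20.8% higher, 19.9% lower). The median log2 fold change of the members was 0.42, against 0.04 over all genes, with 32 of 46 positive. This set was shaped by the count filter, which a name can pass through the group where it is high. *fbxc-42*, for instance, had 30 counts over the mutant and 3 over the N2 libraries. Counts of members by direction carry this limit. *fbxc-47* had 12.2, 12.7 and 12.1 CPM in the mutant and 5.92, 6.09 and 4.73 CPM in N2 (0.98, SE 0.11, edgeR adjusted p = 4.94e-06). *fbxc-50* had 6.68, 8.53 and 7.65 CPM, against 2.56, 2.43 and 2.17 CPM in N2 (1.5, SE 0.18, edgeR adjusted p = 6.29e-06). Both genes were well apart in the 2 genotypes.

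The genes that led the extract response of N2 were high here without extract. *fbxb-53* had 75 counts in the mutant and 2 in N2, a 30.6-fold ratio with a 95% counting interval of 8.17 to 257. *fbxb-7* was 3.03 higher on the log2 scale (SE 0.47, edgeR adjusted p = 8.19e-05). The other members among the 6 with the smallest p were *fbxc-58*, at 9.56, 9.90 and 8.93 CPM in the mutant and 3.13, 2.22 and 3.0 CPM in N2, and *fbxc-32*, at 0.761, 0.651 and 0.873 CPM in the mutant and 0.151, 0.103 and 0.108 CPM in N2. Those 6 calls held without any 1 library, and that of *fbxb-53* was lost with the oocyte and yolk level as a covariate.

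The highest *fbxb* genes were also among the calls: *fbxb-14* had 1.44, 1.48 and 1.16 CPM in the mutant, against 0.339, 0.310 and 0.181 CPM in N2, and *fbxb-38* had 1.78, 2.53 and 2.16 CPM, against 0.981, 0.465 and 0.686 CPM. The sum of *fbxc-4* and *fbxc-5*, 2 of the 15 names that count as 1 difference, was higher by 0.46 on the log2 scale (edgeR adjusted p = 0.000625). The sum of the pair interleaved with it, *fbxc-8* and *fbxc-12*, was 1.31, 1.12 and 1.10 CPM in the mutant and 0.679, 0.103 and 0.181 CPM in N2, a log2 difference of 1.64 (edgeR adjusted p = 0.0136). The single gene that fell was *fbxc-33*, with 2.24, 2.17 and 2.59 CPM in the mutant and 3.58, 2.89 and 2.89 CPM in N2 (-0.59, SE 0.18, edgeR adjusted p = 0.013), and its call was lost when single libraries were left out. Of 15 oocyte and yolk genes 7 were higher in *flor-1(icb93)*, at a summed 4100 to 4981 CPM, against 103 to 2606 CPM in N2. The shorter fragment length of these libraries cannot be told apart from the genotype. With the oocyte and yolk level as a covariate, 9 of the 15 members were still called. That level was 7.04 to 7.33 in the mutant and 1.91 to 6.28 in N2. The groups did not overlap in it, so this setting cannot separate it from the genotype, and a kept or lost call decides nothing. The calls of *fbxb-38*, *fbxc-4*, *fbxc-5* and *fbxc-42* were lost without untreated N2 libraries B and C. The members' median log2 fold change was 0.16 in that setting.

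**Figure D4:**
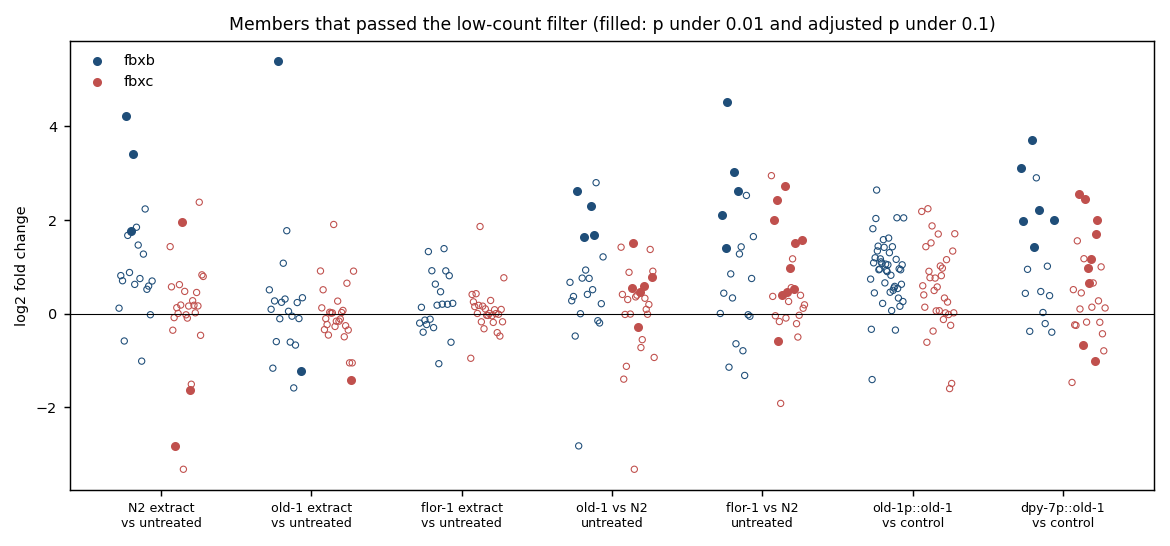
log2 fold change of each tested member in 7 comparisons, with *fbxb* in blue and *fbxc* in red. Filled points passed the test, 15 of 42 in *dpy-7p::old-1* and none of 78 in *old-1p::old-1* animals, where 68 of 78 points lie above 0.

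In *old-1p::old-1* animals, no member passed the test. Of 78 members tested, a set shaped by the count filter, which a name can pass through the group where it is high, 68 had a positive log2 fold change, against 9093 of 16230 genes, and the median was 0.86, against 0.12 over all genes. edgeR called 0 of 78 members and 0.117% of all genes (19 of 16230), with 0.0924% higher and 0.0246% lower. At an unadjusted p under 0.05 it found 11 members, 9 of them higher, and 3119 of all genes, and DESeq2 called 1 member, *fbxc-58*, and 1449 genes. The smallest p was that of *fbxc-58*, with 11.6, 14.2 and 12 CPM in transgenic and 6.23, 4.46 and 3.78 CPM in control libraries (1.34, SE 0.30, edgeR adjusted p = 0.173). The groups of *fbxc-58* did not overlap.

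The spread within the groups was wide and shared by many members. *fbxb-7* had 3.25, 12.6 and 14.5 CPM in transgenic libraries A, B and C, against 5.26, 5.25 and 0.616 CPM in control libraries A, B and C. *fbxc-32* had 1.96, 13.9 and 17.2 CPM, against 4.69, 3.89 and 0.370 CPM. Both were high in transgenic B and C and low in control C, as was the oocyte and yolk level, at a summed 6087 to 59936 CPM in transgenic and 1145 to 19960 CPM in control libraries. Of a list of 10 genes of the early embryo, chosen after seeing the data, 9 had a count in the transgenic and 8 in the control libraries, with a summed level of 0.700, 5.09 and 3.86 CPM in transgenic A, B and C and 0.657 to 1.96 CPM in the controls. *med-2* was at 0 in the transgenic group, and *hlh-27* and *tbx-35* were at 0 in the controls. The part of both lists in the members' values was not tested.

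Without transgenic library A, 8 of 108 members tested were called, all higher, a smaller share than the 22.7% of all genes, to which they are not matched for level. They were *fbxb-31*, *fbxb-119*, *fbxb-50*, *fbxb-2*, *fbxb-52*, *fbxb-56*, *fbxc-58* and *fbxc-44*, the *fbxc* genes by 1.27 and 1.13 on the log2 scale. The 6 *fbxb* genes had 0 to 8 counts over the 3 control libraries. Of these, *fbxb-31*, *fbxb-50*, *fbxb-2*, *fbxb-52* and *fbxb-56* were not among the 78 names tested in the main fit. A name can pass the filter of this fit through transgenic B and C, so their direction was shaped by the filter. *fbxb-56* had 16 counts in transgenic B and C and none in the controls, at least 8.05-fold higher when 3 counts over the controls are taken as the floor. *fbxb-31* had 0, 0.521 and 0.312 CPM in transgenic libraries A, B and C, against 0, 0.0330 and 0 CPM in the controls, and *fbxb-2* had 0, 0.372 and 0.546 CPM, against 0.0407, 0.0660 and 0 CPM. Transgenic library A was thus at 0 for both genes, and these 8 names were chosen after their values were seen.

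In *dpy-7p::old-1* animals, 13 members rose and 2 fell of 42 tested. This set was shaped by the count filter, which a name can pass through the group where it is high. *fbxb-45*, for instance, had 19 counts over the transgenic and 1 over the control libraries. Counts of members by direction and by family carry this limit. Over all 16079 genes 45.9% were called, 24.9% higher and 20.9% lower. The members' median log2 fold change was 0.49, against -0.09 over all genes, and 30 of 42 were positive, against 7459 of 16079. By family, 6 of 16 *fbxb* members rose and none fell, and 7 of 26 *fbxc* members rose and 2 fell.

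*fbxc-50* had 28.4, 27.1 and 26.7 CPM in *dpy-7p::old-1* libraries, against 9.20, 6.90 and 7.39 CPM in the controls (log2 fold change 1.70, SE 0.13, edgeR adjusted p = 1.24e-05). *fbxc-32* had 9.85, 10.7 and 6.61 CPM, against 1.82, 0.873 and 1.59 CPM (2.56, SE 0.27, edgeR adjusted p = 6.75e-05). *fbxc-42* (II:991600-993179) had 3.59, 5.06 and 3.04 CPM, against 0.619, 0.699 and 0.661 CPM (2.44, SE 0.28, edgeR adjusted p = 0.000111). In all 3 genes the lowest transgenic library was above the highest control library.

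*fbxc-44* had 23.8, 28.3 and 25.5 CPM in transgenic and 12.6, 12.3 and 11.5 CPM in control libraries (0.98, SE 0.12, edgeR adjusted p = 0.000165), and *fbxc-47* had 10.9, 12.9 and 10.5 CPM, against 5.57, 4.45 and 4.08 CPM (1.17, SE 0.16, edgeR adjusted p = 0.000319). *fbxb-67*, the leading *fbxb* gene, had 3.04, 2.57 and 1.94 CPM in transgenic and 0.660, 0.393 and 0.467 CPM in control libraries (2.21, SE 0.32, edgeR adjusted p = 0.000387). Each of these genes again kept its groups apart. The other members that rose were *fbxc-51*, *fbxc-45*, *fbxb-103*, *fbxb-53*, *fbxb-97*, *fbxb-45* and *fbxb-15*, the last 5 at 2.25 CPM or less in every library of the experiment. The call of *fbxb-53* was lost without transgenic library 1 or 3. *fbxb-103* (II:3907140-3908516) had 1.04, 0.900 and 0.441 CPM, against 0, 0.0437 and 0.194 CPM, and had no count in any N2 or *old-1(ok1273)* library of the extract experiment.

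The 2 genes that fell were the tandem pair of chromosome IV. The sum of *fbxc-4* and *fbxc-5* was 27.9, 30.6 and 27.5 CPM in *dpy-7p::old-1* libraries, against 50.5, 39.4 and 50.7 CPM in controls, a log2 fold change of -0.81 (edgeR adjusted p = 0.000173). Fitted under their own names, *fbxc-4* and *fbxc-5* fell by 0.68 and 1.02 on the log2 scale, which, given the divided reads, counts as 1 difference. In the cluster II:868814-1049949, 4 of 9 members tested rose and none fell, and in II:1536231-1863782 it was 3 of 6, where 24.9% of all genes rose. The members tested there had passed the same count filter, which a name can pass through the group where it is high. The other clusters with 5 or more names had 3 members tested and no call.

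Other genes moved in this comparison too. Of 12 germline genes 11 were higher, by a median of 0.85 for the list, and 7 of 9 sperm genes were higher. Of 15 oocyte and yolk genes 7 were higher, with a list median of -0.02 and a summed level of 39617 to 61844 CPM in transgenic and 48012 to 77576 CPM in control libraries. The early embryo genes summed to 0.778 to 3.51 CPM in transgenic and 0.619 to 0.661 CPM in control libraries, with *med-1* and *tbx-35* at 0 in the transgenic group and *end-1*, *hlh-27* and *med-1* at 0 in the controls. With the oocyte and yolk level as a covariate, 3 of the 15 members were still called (*fbxc-50*, *fbxc-32* and *fbxb-53*), and *fbxc-12*, which was not measured separately, was called besides. That level was 10.1 to 10.6 in transgenic and 9.31 to 9.71 in control libraries. The groups did not overlap in it, so this setting cannot separate it from the transgene and a lost call decides nothing. The part of the germline, sperm and early embryo genes in the members' values was not tested.

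**Figure D5:**
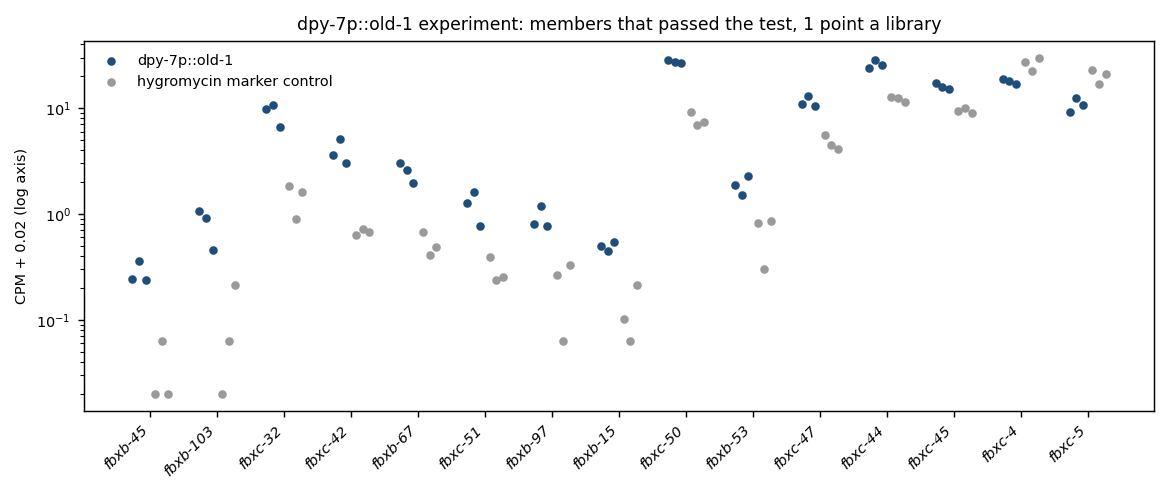
Levels (CPM + 0.02, log axis) of the 15 called members in each library of the *dpy-7p::old-1* experiment, transgenic libraries left of control libraries. Only *fbxc-4* and *fbxc-5* are lower in transgenic animals. The groups do not overlap in these 15 members, which the test had selected. The share of all genes without overlap was not computed for this experiment.

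The partners of F-box proteins were read beside the members, as 24 genes for cullins, RING subunits and SKR adaptors. In N2 animals 8 of 16 tested rose with extract and 1 fell, where 14.6% of all genes rose and 20.3% fell. Those that rose included *skr-3* and *skr-4*, SKR adaptors (1.14 and 1.36 on the log2 scale), and the cullin *cul-6* (1.30). In *old-1(ok1273)* 1 of 16 rose with extract and 4 fell (12.7% and 11.4% of all genes), and in *flor-1(icb93)* none was called. The response differed from that of N2 in 10 of 16 for *old-1(ok1273)* (9 lower, 1 higher) and in 5 for *flor-1(icb93)*, all lower. Over all genes it was lower in 13% and higher in 18% for *old-1(ok1273)*, and 9.43% and 14.4% for *flor-1(icb93)*. Without extract, 6 were higher and 2 lower in *old-1(ok1273)*, and 4 higher and 5 lower in *flor-1(icb93)*, against N2. The shares of all genes were 15.7% higher and 23.4% lower in *old-1(ok1273)*, and 20.8% and 19.9% in *flor-1(icb93)*. In *dpy-7p::old-1* animals 11 of 23 rose and 2 fell, where 24.9% of all genes rose and 20.9% fell. Among those that rose were *skr-2* (1.06) and *skr-7* (2.85). In *old-1p::old-1* animals none of 23 was called, where 0.117% of all genes were. Of 9 individually studied F-box genes, 3 rose and 1 fell with extract in N2, *fbxl-1* by 1.10, and 5 rose and 1 fell in *dpy-7p::old-1* animals, *fsn-1*, which acts at synapses, by 1.33.

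The related *fbxa* family was read by counts alone. Of 144 *fbxa* names tested in the extract experiment, 39 rose and 21 fell with extract in N2, where 14.6% of all genes rose and 20.3% fell. In untreated *old-1(ok1273)*, 32 were higher and 8 lower than in N2, where 15.7% of all genes were higher and 23.4% lower. In *old-1(ok1273)* animals 26 of 144 fell with extract and none rose, where 11.4% of all genes fell and 12.7% rose. In *dpy-7p::old-1* animals 25 of 142 *fbxa* names rose and 20 fell, where 24.9% of all genes rose and 20.9% fell. Of the 42 *fbxb* and *fbxc* members tested, 13 rose and 2 fell, and the contrast between families was not tested.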

How the data were processed

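L4 whole-animal RNA (TRIzol) was sequenced by 2 companies, and which one sequenced which library is not given in the sources used here. Per the labels and methods, the authors pseudoaligned reads with kallisto to the WormBase WS283 transcriptome and compared groups with sleuth, tools also listed in the submitters' processing notes. The deposited files hold estimated counts and TPM for each of 37058 transcripts per library, without normalization of the counts. Kallisto divides reads that fit several transcripts, which affects tandem copies. 17 pseudogenes with such symbols in RefSeq were not analysed here.

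Estimated counts were summed per gene name and rounded to whole numbers. Genes with low counts were removed with edgeR's filterByExpr (minimum count 5, total 15), and TMM scaling and the quasi-likelihood test were applied (edgeR 4.0.16, R 4.3.3), with 1 fit over the 18 extract libraries and 1 for each overexpression experiment. The thresholds (p under 0.01, adjusted p under 0.1) follow the study. SEs were derived from the F statistic and the log2 fold change. CPM were scaled to a library's total counts and TPM are the deposited values summed per gene. Counting intervals (95%, exact) cover counting error only. Code was tested on simulated data. DESeq2 1.42.0 and other settings served as alternatives. Members are named if among up to 6 called in each direction with the smallest p, among the 5 highest of each family, or called in a difference of response. The members and lists were chosen with earlier results of these data known. Lists gave these calls (higher and lower): in N2 with extract, 2 and 3 of 8 epidermal, 0 and 1 of 7 intestinal, 0 and 3 of 5 muscle, 2 and 0 of 5 neuronal, and 1 and 2 of 4 pharyngeal genes.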

Additional observations from a re-analysis of the deposited data

Results flagged for a closer look

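In 10 cases the response of a member to extract differed between a mutant and N2 in the test of the difference itself (edgeR, response in the mutant minus response in N2, on the log2 scale). With *old-1(ok1273)* the differences were -4.82 for *fbxb-53*, -2.33 for *fbxb-7*, -2.86 for *fbxb-79*, -1.88 for *fbxc-7*, -0.52 for *fbxc-54* and -1.94 for *fbxc-40*. With *flor-1(icb93)* they were -3.70 for *fbxb-7*, -4.45 for *fbxb-53*, 3.25 for *fbxc-32* and 1.92 for *fbxc-48*. Both sets rest on the same 6 N2 libraries. *fbxb-79*, which was not described above, had 0.111, 0.119 and 0.0392 CPM in treated and 0.302, 0.254 and 0.258 CPM in untreated *old-1(ok1273)* libraries, and 0.156, 0.222 and 0.230 CPM in treated and 0.113, 0 and 0.108 CPM in untreated N2 libraries. *fbxc-54* had 3.98, 3.86 and 4.27 CPM in treated and 5.09, 4.71 and 5.16 CPM in untreated *old-1(ok1273)* libraries, and 5.2, 4.65 and 5.03 CPM in treated and 4.11, 4.65 and 4.15 CPM in untreated N2 libraries.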

How the results depend on the processing

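Counts of called members are given in the order extract in N2, in *old-1(ok1273)* and then *flor-1(icb93)*, difference of response for *old-1(ok1273)* and *flor-1(icb93)*, untreated *old-1(ok1273)* and *flor-1(icb93)* against N2, *old-1p::old-1* and *dpy-7p::old-1*: 6, 3, 0, 6, 4, 10, 15, 0 and 15. They stayed within 1.5 times of these with RLE scaling, without a count filter and with tandem copies summed, the last chosen after seeing the data. With DESeq2, extract in *old-1(ok1273)* gave 1 and *old-1p::old-1* 1. At adjusted p under 0.05 alone, extract in *old-1(ok1273)* gave 6. With a mean of at least 1 CPM, extract in N2 gave 3 and the differences of response 3 and 2. With only the groups compared in the fit, extract in *old-1(ok1273)* gave 1 and untreated *old-1(ok1273)* 3. With the oocyte and yolk level as covariate the counts were 2 for extract in N2, 1 and 2 for the differences of response, 4 and 9 for the untreated mutants, 2 for *old-1p::old-1* and 4 for *dpy-7p::old-1*. Without untreated N2 libraries B and C, which leaves library A alone in that group, they were 2 for extract in N2, 3 and 2 for the differences and 5 for untreated *old-1(ok1273)*. *fbxc-48* turned positive in N2 with extract under the covariate (0.23) and without B and C (0.27). Within groups of the extract experiment, the oocyte and yolk level varied mainly in untreated N2 (1.91 to 6.28). The 2 settings therefore turn largely on the same libraries and are not separate checks. The level of untreated N2 also did not overlap that of extract-treated N2 (1.80 to 1.85) or of either untreated mutant. The covariate therefore cannot separate it from treatment or genotype in those comparisons, and a kept or lost call decides nothing. The differences of response use the same groups and carry the same limit.

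Leaving out each library in turn gave 3 to 9, 1 to 3, 0 to 0, 2 to 10, 3 to 7, 5 to 9, 13 to 16, 0 to 8 and 12 to 16 members. The 3 for extract in N2 came without untreated N2 C, and the 1 in *old-1(ok1273)* without its untreated A. For the difference of response with *old-1(ok1273)*, untreated N2 A gave 10, C gave 2 and extract-treated *old-1(ok1273)* B gave 3, and with *flor-1(icb93)* untreated N2 A gave 7. With RLE scaling the members' median log2 fold changes kept their signs in all 9 comparisons, and without untreated N2 B and C the medians were 0.27, -0.34, -0.19, 0.33 and 0.16 in the 5 comparisons that use those libraries. In *old-1p::old-1* the median was 0.44 to 1.35 over the single libraries left out. Of 45 named gene values, recomputed 737 times, 583 kept their call, 152 lost it and 2 reversed.

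With the replicate label as a block the counts were 6, 3, 0, 5, 4, 8, 15, 0 and 13. The labels do not pair the libraries: same-label correlations of deviations were -0.154 to 0.041 in the extract experiment, -0.466, 0.357 and -0.470 in *old-1p::old-1* and -0.176 to -0.0994 in *dpy-7p::old-1*, and in no comparison did every library correlate best with its own label. Leaving out members that share 31-base words was not run, for lack of transcript sequences. Depth limits most *fbxb* genes, 64 names having too few counts for a test in any fit. The cause of these changes was not tested.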
